A study of Homo sapiens with 30 samples.

Results

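The data described here compare HCT116 cells 24 h after a lower dose of Omomyc with untreated HCT116 cells. The members are 6 of the 30 libraries of the series, chosen from their labels, with 3 replicates per group, and 14886 of the 57992 genes in the table, namely those whose RPKM averaged 0.5 or more across these libraries. RPKM counts reads per kilobase of a gene, relative to all reads of its library. Both groups are the human colon carcinoma line HCT116, whose MYC status the labels give as stabilized. The treated group received Omomyc with ProteoJuice, a reagent that carries protein into cells. Its dose is 2 μM in the labels and 2.5 μM in the study's methods, and its time is 24 h in the titles, whereas a time tag reads 4 h. The untreated group has no time point, and the study's methods speak of cells with and without Omomyc and of ProteoJuice without saying plainly that the untreated cells received it, so effects of Omomyc, of the reagent and of time in culture cannot be told apart. Nothing states that the replicates are separate cultures, and the p-values measure the spread between these libraries, which may be technical. HCT116 cells given 10 μM for 24 h or the lower dose for 6 h, and Ramos cells, a Burkitt lymphoma line, given 2.5 μM for 24 h or untreated, were used where the dose, the time and the line are compared. The other groups titled 24 h carry the same 4 h tag, and times below follow the titles.

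Omomyc is a small protein derived from the dimerization domain of MYC, a transcription factor of the basic helix-loop-helix leucine zipper family. MYC pairs with MAX and binds E boxes, whose core sequence is CACGTG. Omomyc can pair with MYC, with MAX or with itself, and pairs without MYC occupy E boxes but lack the part of MYC that activates transcription. MYC is known for driving genes of ribosome production, nucleotide synthesis and cell division, and in colon cancer cells it acts downstream of WNT and growth factor signaling.

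Summed over genes, RPKM came to 593633 to 660769 in untreated libraries and to 669145 to 703766 in treated libraries, and between 14442 and 15340 genes per library reached 0.5 RPKM. Read numbers are not stated in the table, and the depth is therefore unknown. Mitochondrial transcripts made up 0.401% to 0.52% of the sum in untreated and 1.20% to 1.89% in treated libraries, and small and miscellaneous RNAs made up 22.4% to 29.8% and 29.1% to 33.5%. The part of these shares in the differences below was not tested. Of 13 markers of colon epithelium, 6 averaged 0.5 RPKM or more in untreated cells, with KRT8, KRT18 and KRT19 the highest, and CDX1, CEACAM5 and CEACAM6 were listed at 0 in both groups. The markers summed to between 1844 and 1891 RPKM in untreated and to between 1948 and 2144 RPKM in treated libraries. The sums of 10 B cell markers were 2.03 RPKM or lower in untreated and 2.77 RPKM or lower in treated libraries. Those of 7 fibroblast markers were between 2.70 and 3.31 RPKM and between 5.83 and 6.64 RPKM, nearly all of it COL1A1, and COL1A2, DCN and PDGFRA were at or near 0.

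At 24 h, 4071 of the 14886 genes differed between treated and untreated cells at an adjusted p under 0.05 (limma, Benjamini-Hochberg), or 27.3% of those tested. Of these, 2466 (16.6% of those tested) were higher in treated cells and 1605 (10.8%) were lower. These shares are the background for the counts of every gene list below. The changes were small for most genes, since the 5th and the 95th percentile of the log2 fold changes were -0.35 and 0.54, with a median of 0.04. A log2 fold change of at least 1 in size was reached by 114 called genes, of which 84 were higher and 30 lower. For 6687 genes (44.9%) the 3 treated libraries lay entirely above or below the 3 untreated libraries. In the exact permutation test of single genes, 3 libraries against 3 cannot give a p below 0.1, and the p-values given below are those of limma. Higher genes made up 60.6% of the calls on the deposited scale. Rescaling the libraries to an equal sum of RPKM gave 3873 calls, 23.1% of them higher, and shifted the overall median to -0.10. Of the 14886 genes, 893 were then higher and 2980 lower, and rescaled counts of gene lists below are to be read against these. Without the third or the first untreated library, 2167 and 2597 genes were called. Directions below are those on the deposited scale.

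The deepest falls were in several kinds of gene, namely targets of the stress factor ATF4, the ID proteins, the FOS genes of growth factor signaling, and single genes such as SAT1, TNFSF18 and CYP24A1. CHAC1, a glutathione-degrading enzyme induced by ATF4, was 12.3, 12.5 and 16.5 RPKM in the untreated libraries and 3.13, 2.52 and 3.005 RPKM in the treated libraries. This is a 4.77-fold fall (log2 fold change -2.07, standard error 0.123, adjusted p = 4.64e-05, limma). All 3 treated libraries lay below the untreated ones, a condition that the rule for naming the largest changes also set. The log2 fold changes of the 10 largest protein-coding falls ran from -2.07 to -1.36.

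**Figure D1:**
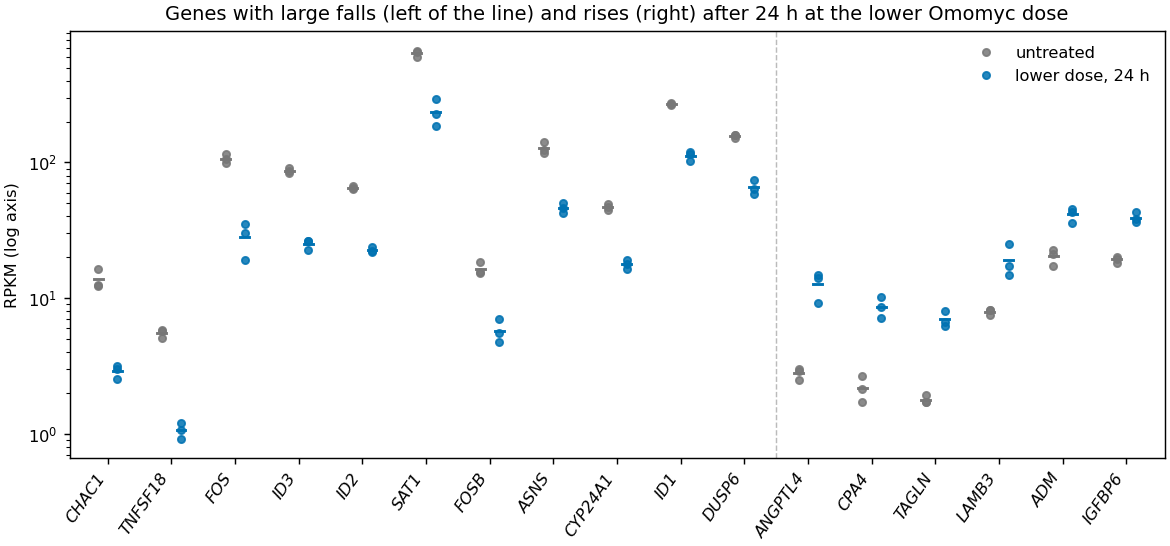
RPKM (log axis) of 17 genes in the 3 untreated (gray) and the 3 treated libraries (blue), where each dot is a library and each bar the mean of 3. The 11 genes left of the dashed line fell and the 6 to the right rose, and in none of them do the groups overlap, and CHAC1, for example, has a mean of 13.8 RPKM in untreated and 2.89 RPKM in treated cells.

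The ID proteins are helix-loop-helix proteins without a DNA-binding region that hold E proteins away from DNA and restrain differentiation. Of the 4 genes, 3 passed the filter, and all 3 fell. ID3 was 83.4, 86.5 and 91.3 RPKM in untreated libraries and 22.5, 26.3 and 26.2 RPKM in treated libraries, a 3.48-fold fall (log2 fold change -1.78, standard error 0.0679, adjusted p = 4.65e-06). ID2 was 64.2, 65.0 and 66.5 RPKM and 21.8, 22.1 and 23.6 RPKM in the same groups, 2.90-fold lower after treatment, and its adjusted p of 2.04e-06 came with the smallest standard error of the 3 genes, 0.0489. ID1, the most abundant of the family, fell from 269.6 ± 5.14 RPKM (SD, n = 3) to 112 ± 8.95 RPKM (SD, n = 3). ID4 stood under the filter, at 0.3497, 0.443 and 0.375 RPKM in untreated and 0.173, 0.146 and 0.0410 RPKM in treated libraries. Of the BMP and TGF-beta feedback genes, a pathway through which ID genes are induced, 4 of 12 tested fell and 1 rose, with a median log2 fold change of -0.16. SMAD7, the inhibitory SMAD of this pathway, went from 2.50 ± 0.164 RPKM (SD, n = 3) to 1.20 ± 0.569 RPKM (SD, n = 3), the ubiquitin ligase SMURF2 from 99.0 ± 3.79 RPKM (SD, n = 3) to 63.9 ± 3.21 RPKM (SD, n = 3), and the ligand BMP4 had a log2 fold change of -0.35.

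ATF4 is the transcription factor of the amino acid response, which raises enzymes and transporters that supply amino acids and the synthetases that load them on tRNA. Of 12 ATF4-linked genes of amino acid and one-carbon synthesis that passed the filter, 9 fell and 0 rose, against 10.8% lower among all genes, and the median log2 fold change was -0.38 against 0.04. ASNS, asparagine synthetase, was 118, 123.1 and 141 RPKM in untreated libraries and 46.0, 50.3 and 42.2 RPKM in treated libraries, a 2.75-fold fall (log2 fold change -1.45, standard error 0.08, adjusted p = 4.32e-05). PSAT1 and PHGDH, successive enzymes of the serine pathway, fell to 37.9 ± 1.62 RPKM (SD, n = 3) from 78.0 ± 5.77 RPKM (SD, n = 3) and to 37.1 ± 3.38 RPKM (SD, n = 3) from 75.6 ± 4.29 RPKM (SD, n = 3). GPT2, an alanine aminotransferase, had a log2 fold change of -0.72, and MTHFD2 of the mitochondrial folate cycle one of -0.62. PSPH, ALDH18A1 and CTH had log2 fold changes of -0.18, -0.04 and -0.15 and were not past the threshold. PCK2, the mitochondrial phosphoenolpyruvate carboxykinase, which is on none of the lists, was 21.4, 21.1 and 26.5 RPKM and 9.43, 9.93 and 8.95 RPKM and so 2.44-fold lower.

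Among 13 regulators linked to ATF4, 8 fell and 0 rose. ATF4 mRNA itself had a mean of 309 RPKM in untreated and 211 RPKM in treated cells (log2 fold change -0.55, adjusted p = 0.000729). TRIB3, a pseudokinase that restrains ATF4, fell 1.91-fold, from 31.5 ± 2.08 RPKM (SD, n = 3) to 16.5 ± 0.958 RPKM (SD, n = 3). SESN2, an inhibitor of mTORC1, and CEBPG, a partner of ATF4 on DNA, had log2 fold changes of -0.62 and -0.56. DDIT3, PPP1R15A and the kinases EIF2AK3 and EIF2AK4, which sense unfolded protein and lack of amino acids, had log2 fold changes of -0.31, -0.02, 0.02 and -0.03 and were not past the threshold.

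Of 15 amino acid transporter genes, 6 fell and 1 rose. SLC7A11, which exchanges cystine for glutamate, was 20.7, 19.3 and 22.2 RPKM in untreated libraries and 9.78, 10.1 and 9.46 RPKM in treated libraries, 2.12-fold lower (adjusted p = 6.92e-05). The log2 fold changes of SLC1A4 and SLC6A9, carriers of neutral amino acids and glycine, were -0.61 and -0.49. SLC7A5 and SLC3A2, the subunits of the large neutral amino acid carrier, had log2 fold changes of -0.06 and -0.02 and were not past the threshold. SLC43A2, another carrier of large neutral amino acids, had a log2 fold change of 0.42 and was the member called higher, a call that rescaling to an equal sum ended.

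The aminoacyl-tRNA synthetase genes were placed on a cytosolic or a mitochondrial list, and the lists were counted apart. A gene whose enzyme serves both places was not set aside. Of 20 cytosolic enzymes, 12 fell and 0 rose, with a median log2 fold change of -0.23. AARS, which loads alanine, was 100.5, 96.0 and 107 RPKM in untreated libraries and 62.7, 69.7 and 62.0 RPKM in treated libraries (log2 fold change -0.64), and GARS, for glycine, had a mean of 119.8 RPKM and of 79.1 RPKM in the same groups. CARS and SARS had log2 fold changes of -0.54 and -0.51. The other 8 cytosolic genes, among them DARS, KARS, HARS and RARS, were not past the threshold and lay between -0.13 and 0.07. Of 17 mitochondrial synthetases, 0 fell and 4 rose, with a median of 0.08. AARS2 and SARS2 had the largest rises, with log2 fold changes of 0.40 and 0.32. The mitochondrial counts depended on the scale, with 0 higher and 5 lower after rescaling to an equal sum, whereas the cytosolic counts were then 0 higher and 13 lower.

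Promoter sequences were available for 10630 of the 14886 genes as 300 bases from 250 before to 50 after the RefSeq start (GRCh38.p14), with 1 start per gene. The letters TGATGNAA, searched on both strands, are those of the element that ATF4 binds with C/EBP proteins. This search was added after the values had been seen. The element was in 37.5% of the promoters of the cytosolic synthetases (6 of 16) and of the amino acid synthesis genes (3 of 8), against 1.61% of all genes tested with a promoter and 3.67% of all 27305 promoters of the table. It was in 2.82% of the promoters of genes called lower and in 1.02% of those called higher. All 6 cytosolic synthetases whose promoter holds it fell, with a median log2 fold change of -0.38, and 4 of the 10 without it fell, with a median of -0.02. The amino acid synthesis genes went the other way in size, with a median of -0.34 for the 3 that hold it and of -0.62 for the 5 that do not. Of the regulators, 1 of 13 (CHAC1) holds it, and of the transporters 3 of 14 do, of which 2 fell and SLC3A2 was not past the threshold. Over all 171 genes that hold it, 35 were lower and 18 higher, and the median was -0.0029. The promoters of ASNS, CHAC1 and AARS, whose values are given above, and of GOT1, MTHFD1L and IARS are shown as 60 bases from before the start, with the element in capitals, written 5′ to 3′ on the gene's strand. These lie at chr7:97872443-97872502 (minus strand), chr15:40953236-40953295 (plus strand), chr16:70289660-70289719 (minus strand), chr10:99430789-99430848 (minus strand), chr6:150866331-150866390 (plus strand) and chr9:92293698-92293757 (minus strand), in that order.
ASNS: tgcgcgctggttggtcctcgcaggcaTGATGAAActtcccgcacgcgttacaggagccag
CHAC1: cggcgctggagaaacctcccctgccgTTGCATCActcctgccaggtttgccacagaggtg
AARS: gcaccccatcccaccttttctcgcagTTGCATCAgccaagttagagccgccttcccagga
GOT1: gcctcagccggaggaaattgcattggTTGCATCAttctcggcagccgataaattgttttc
MTHFD1L: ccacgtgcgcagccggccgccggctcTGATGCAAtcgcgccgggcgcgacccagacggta
IARS: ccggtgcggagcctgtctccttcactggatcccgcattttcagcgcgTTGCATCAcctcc
The log2 fold changes of GOT1, MTHFD1L and IARS were -0.34, -0.18 and -0.32, so genes with the element fell by very different amounts. TRIB3 fell as well and holds no match in this window, which says only that these letters are absent there.

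Genes of growth factor signaling made up a further group of falls. Among all genes tested, 10.8% were called lower and 16.6% higher. FOS and FOSB, subunits of AP-1 that are switched on within minutes of a growth signal, fell 3.77-fold and 2.87-fold. FOS was 106, 115 and 98.4 RPKM in untreated libraries and 30.3, 35.4 and 19.2 RPKM in treated libraries (log2 fold change -1.94, standard error 0.182, adjusted p = 0.000355). FOSB was 15.7, 18.5 and 15.3 RPKM and 5.57, 6.98 and 4.72 RPKM (adjusted p = 0.000274), and its locus overlaps ERCC1, which is read from the opposite strand. Neither gene overlapped between groups. Of 9 AP-1 genes, 3 fell, JUNB among them, and FOSL1 and FOSL2, subunits known to be induced later, rose with log2 fold changes of 0.48 and 0.37. JUN and JUND had log2 fold changes of 0.15 and 0.05 and were not past the threshold.

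Of 16 immediate early genes that passed the filter, 6 fell and 0 rose, against 10.8% lower and 16.6% higher among all genes. EGR1, a zinc finger factor induced by ERK, was 21.8, 20.3 and 21.5 RPKM in untreated libraries and 9.85, 9.92 and 12.8 RPKM in treated libraries (log2 fold change -0.94, adjusted p = 0.000493). EGR2 was low and overlapped between the groups, at 0.708, 0.941 and 0.491 RPKM and 0.730, 0.609 and 1.24 RPKM (adjusted p = 0.629). NR4A1, a nuclear receptor, was likewise not past the threshold, with means of 6.31 and 6.81 RPKM. Of 18 genes of ERK output and feedback, 10 fell and 0 rose, with a median log2 fold change of -0.22. DUSP6, the phosphatase that inactivates ERK, was 152, 159.9 and 160.1 RPKM and 64.1, 74.1 and 58.1 RPKM, a 2.41-fold fall (adjusted p = 6.22e-05). SPRY4, an inhibitor of the pathway, and DUSP1 had log2 fold changes of -0.86 and -0.61, and the ETS factor ETV1 one of -0.49. EPHA2, DUSP5 and CCND1 had log2 fold changes of 0.00, 0.01 and -0.22 and were not past the threshold. Of 10 EGF family ligands and receptors, 2 rose and 1 fell, and the abundant ligands AREG and EREG, with untreated means of 192 and 177 RPKM, had log2 fold changes of 0.06 and 0.10.

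SAT1, the enzyme that acetylates polyamines for breakdown, was among the most abundant genes that fell. It was 603, 667 and 650.2 RPKM in untreated libraries and 227, 295 and 186 RPKM in treated libraries (log2 fold change -1.46, standard error 0.136, adjusted p = 0.000342). The groups did not overlap, although the treated libraries were further apart than the untreated ones. Of 11 polyamine genes, 3 rose and 3 fell. The synthetic enzymes ODC1, SRM and SMS, of which ODC1 and SRM are known MYC targets, had log2 fold changes of 0.16, 0.33 and 0.19, and after rescaling to an equal sum 0 polyamine genes were higher. AMD1 and AZIN1, which make the aminopropyl donor and protect ODC1, fell with log2 fold changes of -0.19 and -0.29.

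Single genes with large falls had varied roles. TNFSF18, a ligand of the TNF family, was 5.74, 5.78 and 5.06 RPKM in untreated libraries and 0.921, 1.20 and 1.07 RPKM in treated libraries, 5.21-fold lower. CYP24A1, which inactivates vitamin D, was 49.3, 44.2 and 47.2 RPKM and 17.9, 19.2 and 16.5 RPKM, 2.63-fold lower (adjusted p = 2.11e-05). In both genes the libraries of a group lay close together. KRT23, a keratin, CSTA, a cysteine protease inhibitor, KIAA0040 and CEMIP, a hyaluronan-binding protein, had log2 fold changes of -1.29, -1.15, -1.14 and -1.09, and TRAPPC6A, of a vesicle tethering complex, one of -1.03. HIST2H4B, a histone H4 gene with a nearly identical copy, was 19.8, 17.1 and 18.6 RPKM and 6.35, 8.41 and 6.05 RPKM, and how reads were shared between the copies is not known. KRT23, CSTA, KIAA0040, CEMIP, TRAPPC6A and PCK2 were named after their values had been seen. Outside protein-coding genes, the largest falls were in the pseudogenes RPL3P4, HNRNPA1P10 and RPL7P9, with log2 fold changes of -1.46, -1.15 and -1.08, and reads of their parent genes could be split among them.

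Among the 10 largest protein-coding rises, 9 were genes of the mitochondrial genome and the other was ANGPTL4. All 13 mRNAs of the mitochondrial genome, which encode subunits of the respiratory chain and ATP synthase, rose, with log2 fold changes from 1.18 to 2.50 and a median of 2.01. MT-ND2 was 42.8, 55.8 and 36.4 RPKM in untreated libraries and 284, 170.0 and 332.2 RPKM in treated libraries, a 5.83-fold rise (standard error of the log2 fold change 0.229, adjusted p = 0.000336). MT-CO2 was 297, 341 and 234 RPKM and 1250.2, 851 and 1457 RPKM. The second treated library was the lowest of its group for both genes, and the third untreated library was the lowest of its own, yet the groups did not overlap. Both mitochondrial rRNAs rose as well, with a median log2 fold change of 1.38, and 0 of 4 mitochondrial tRNAs tested were past the threshold. The share of mitochondrial transcripts, given above, did not overlap between the groups, and in the 6 h libraries it was 1.79% to 3.12% of the sum. The 80 nuclear genes for subunits of the same complexes, a list added after the values had been seen, stood near the background, with 14 higher, 6 lower and a median log2 fold change of 0.03. NDUFB9 and NDUFC2 had the largest rises among them, with log2 fold changes of 0.43 and 0.36, and ATP5F1A the largest fall, with -0.24. Of 21 genes of mitochondrial transcription and RNA processing, added in the same way, 5 rose and 2 fell, among them POLRMT, the mitochondrial RNA polymerase, at 0.41 and TFAM, which packages the mitochondrial genome, at -0.22.

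**Figure D2:**
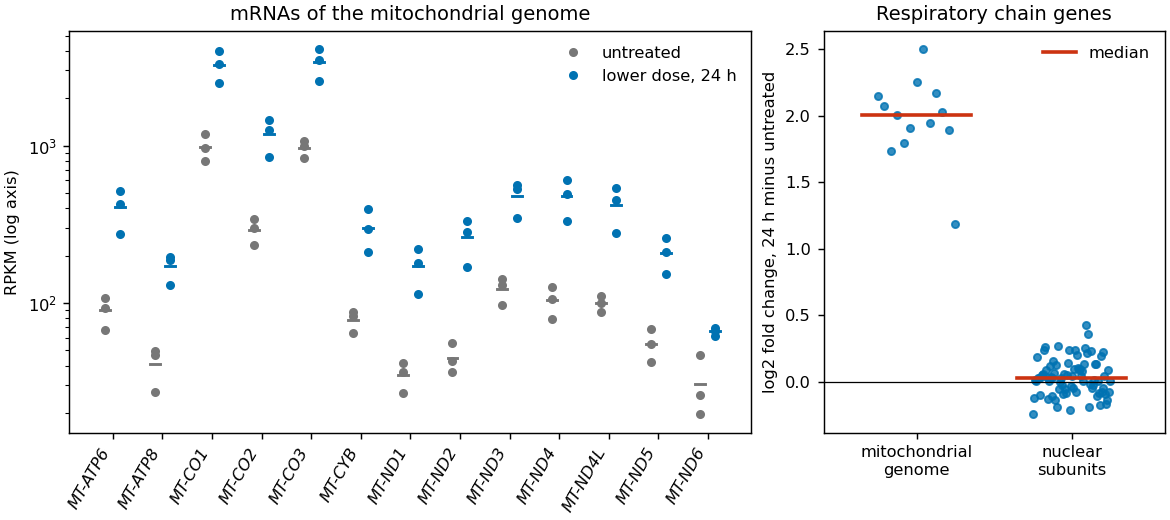
Left, RPKM (log axis) of the 13 mRNAs of the mitochondrial genome in the 3 untreated (gray) and 3 treated libraries (blue), with a dot per library and a bar at the mean. Right, log2 fold changes of these genes and of 80 nuclear genes for subunits of the same complexes, 1 dot per gene, with red bars at the medians of 2.01 and 0.03.

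Nuclear genes with large rises had varied roles. The 15 largest of these rises, other than ANGPTL4, were named after the values had been seen. ANGPTL4, a secreted inhibitor of lipoprotein lipase, was 2.98, 2.92 and 2.47 RPKM in untreated libraries and 14.1, 9.16 and 14.7 RPKM in treated libraries, a 4.54-fold rise (log2 fold change 1.98, standard error 0.162, adjusted p = 0.000205). CPA4, a carboxypeptidase, and TAGLN, an actin-binding protein of smooth muscle, rose 3.98-fold and 3.90-fold from low levels, to 8.65 ± 1.57 RPKM (SD, n = 3) and 6.97 ± 0.956 RPKM (SD, n = 3). LAMB3, a laminin chain of the basement membrane, was 8.16, 8.11 and 7.47 RPKM and 17.2, 14.7 and 24.9 RPKM, and KRT7, a simple epithelial keratin, had a log2 fold change of 1.05. ADM, which encodes the peptide adrenomedullin, and IGFBP6, which binds insulin-like growth factors, rose, with means of 20.3 and 41.5 RPKM and of 19.3 and 39.1 RPKM. DHRS3, which reduces retinal, was 11.8, 12.2 and 11.8 RPKM and 25.6, 24.1 and 26.9 RPKM, with little spread in either group (adjusted p = 4.32e-05). AMH, a hormone of the TGF-beta family, ANKRD37, BNIP3, a mitophagy receptor, COL1A1 and HAS3, a hyaluronan synthase, had log2 fold changes between 0.97 and 1.34. NPIPB12 and GOLGA8A, at 1.503 and 1.36, belong to families of near-identical copies, so reads may be split among them. Outside protein-coding genes, the rule named 3 small nucleolar RNAs, which guide the modification of other RNAs and lie inside host genes. All 3 passed the filter only through the treated libraries, so their values are a description. SNORD33, inside RPL13A, was listed at 0 in all untreated libraries and was 11.7, 3.52 and 5.90 RPKM in treated libraries. SNORA66, inside RPL5, was 0.578, 0.868 and 0 RPKM and 13.5, 4.69 and 14.5 RPKM in the same groups, and SNORA20, inside TCP1, had a log2 fold change of 2.87.

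Lists in which more genes rose than fell included ER chaperones, heat shock proteins, lysosomal genes and sterol synthesis. Of 20 ER chaperones and unfolded protein response genes, 12 rose and 2 fell, against 16.6% higher and 10.8% lower among all genes, and the median log2 fold change was 0.31. CALR, a calcium-binding lectin chaperone, was 218, 218 and 184 RPKM in untreated libraries and 373, 348 and 396 RPKM in treated libraries, a 1.80-fold rise (log2 fold change 0.85, adjusted p = 0.000277). SDF2L1 and DNAJB11, cofactors of the chaperone BiP, had log2 fold changes of 0.72 and 0.49, and HSPA5, which encodes BiP, one of 0.38. HERPUD1 and XBP1, a degradation factor and a transcription factor of the same response, fell with -0.31 and -0.22. Of 15 heat shock genes of the cytosol and mitochondria, 8 rose and 0 fell. HSPA1B rose from 149 ± 3.21 RPKM (SD, n = 3) to 228 ± 10.8 RPKM (SD, n = 3), and its near-identical neighbor HSPA1A, which can share its reads, had a log2 fold change of 0.86. Both lost their calls in a fit that also held the other HCT116 groups, as did HSPB1 and HSPE1.

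Of 17 lysosomal genes, 11 rose and 0 fell, against 16.6% higher and 10.8% lower among all genes. Their median log2 fold change was 0.34. GLA, alpha-galactosidase, was 22.2, 23.4 and 21.5 RPKM in untreated libraries and 34.0, 32.7 and 35.9 RPKM in treated libraries, and CTSL, a cysteine protease, had means of 29.7 and 41.6 RPKM. CTSA and the tetraspanin CD63 had log2 fold changes of 0.44 and 0.37, and TFEB, a transcription factor for this set, had one of 0.05 and was not past the threshold. CTSL and CTSA lost their calls in a fit that also held the other HCT116 groups, and GLA kept its call. Of 24 genes of sterol synthesis and its control, 12 rose and 0 fell, with a median of 0.25. EBP, a sterol isomerase, was 39.5, 38.6 and 33.6 RPKM and 61.3, 63.0 and 63.3 RPKM (log2 fold change 0.74), and HMGCS1, an early enzyme of the pathway, had a log2 fold change of 0.43. INSIG1, which retains the sensor of sterols in the ER, varied among the treated libraries, at 22.4, 30.1 and 15.5 RPKM against 12.7, 14.7 and 12.5 RPKM in untreated libraries (adjusted p = 0.0263). Of 22 glycolysis genes, 10 rose and 3 fell. PFKFB4, which makes an activator of glycolysis, was 7.41, 8.34 and 8.19 RPKM and 16.1, 14.9 and 13.6 RPKM, and SLC16A3, the lactate exporter, rose 1.64-fold. LDHB, PFKL and PFKM fell, with log2 fold changes of -0.22, -0.31 and -0.23. After rescaling to an equal sum, the higher and lower counts were 6 and 2 for the ER list, 3 and 0 for heat shock genes, 3 and 0 for lysosomal, 3 and 2 for sterol and 4 and 4 for glycolysis genes. The same counts for all 14886 genes were 893 and 2980.

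**Figure D3:**
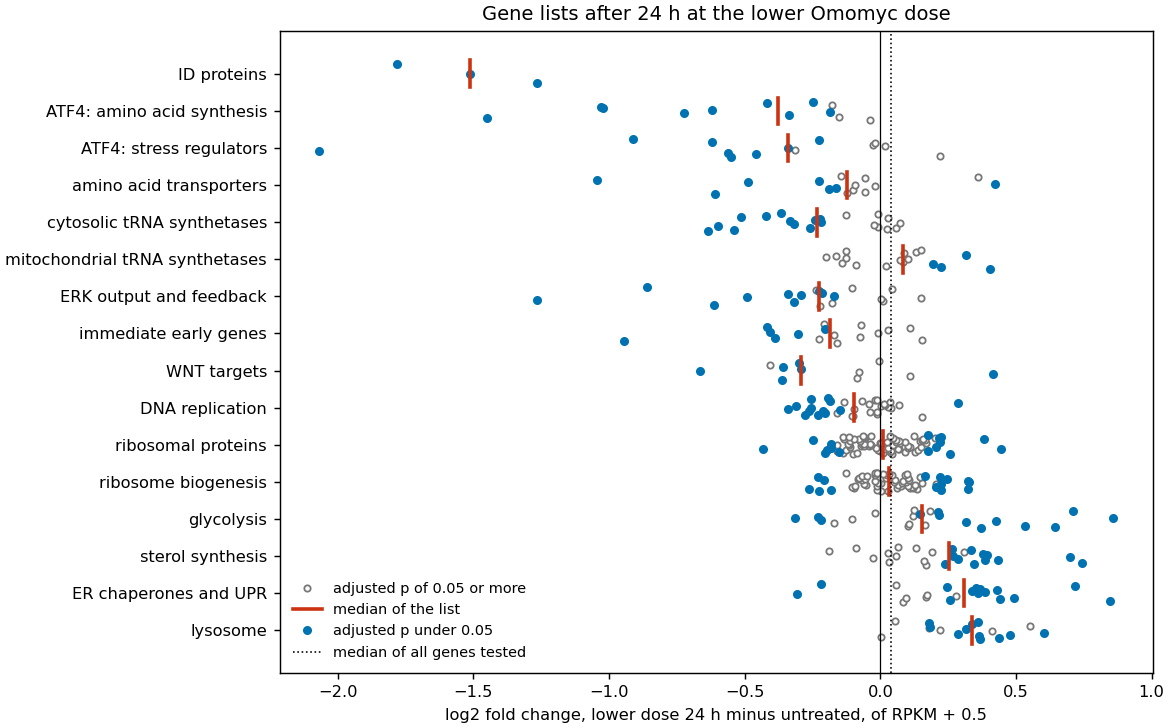
Log2 fold change between treated and untreated cells (x axis, on RPKM + 0.5) of the tested genes of 16 lists, with filled dots for genes at an adjusted p under 0.05, open dots for the others, red bars at list medians and a dotted line at the median of all genes, 0.04. The medians of the ID list, of both ATF4-linked lists and of the cytosolic tRNA synthetases lie left of the line, at -1.51, -0.38, -0.34 and -0.23, and those of the ER, lysosome and sterol lists lie to its right, with single genes of most lists on the other side.

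MYC mRNA was modestly lower at 24 h, at 115, 116 and 124 RPKM in untreated libraries and 92.7, 96.3 and 98.1 RPKM in treated libraries (log2 fold change -0.30, standard error 0.047, adjusted p = 0.00283). A fit that also held the other HCT116 groups put MYC outside the threshold (limma, adjusted p = 0.111). That fit called 1113 genes in all, and SESN2, JUNB, NOTUM and SLC16A3 were likewise outside its threshold. ID3, ASNS and FOS kept their calls under all 17 alternatives. MAX overlapped between the groups, at 15.1, 19.4 and 16.1 RPKM and 15.2, 16.7 and 17.4 RPKM (adjusted p = 0.847). Of 12 genes of the MYC, MAX and MXD network, 2 rose and 3 fell. MXD4 and MXI1, repressors that pair with MAX, had log2 fold changes of -0.39 and -0.20, and MXD3 and the glucose-responsive MLXIPL had 0.20 and 0.41. MXD3 lost its call under 13 of 17 alternatives and MLXIPL under 7, and after rescaling to an equal sum 0 genes of the network were higher and 4 lower.

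Genes of ribosome production, the class best known for E boxes and MYC, stayed near the background. Of 79 cytosolic ribosomal protein genes, 9 rose and 7 fell, with a median log2 fold change of 0.01, and of 64 ribosome biogenesis genes 9 rose and 5 fell, with a median of 0.03. RPL27 and RPS26 had log2 fold changes of 0.44 and 0.38, and RPL3 went from 902 ± 42.8 RPKM (SD, n = 3) to 668 ± 23.7 RPKM (SD, n = 3). NOP56, a core protein of small nucleolar particles, was 220.2, 224 and 223 RPKM and 282, 274 and 279 RPKM (adjusted p = 0.000983), and DKC1, the pseudouridine synthase of the other class of these particles, had a log2 fold change of -0.26. After rescaling to an equal sum, 1 ribosomal protein gene was higher and 15 were lower, and 0 biogenesis genes were higher and 11 lower. Among all 14886 genes, 893 were then higher and 2980 lower, so these counts include a shift shared by most genes. Of 12 genes whose promoters the study assayed for binding, ATAD3B and its near-identical neighbor ATAD3A passed the threshold, with log2 fold changes of 0.67 and 0.17. ATAD3B kept its call under all 17 alternatives tried and ATAD3A lost it under 12 (log2 fold change 0.011 with an equal sum). The study's spelling of the name does not tell them apart. NPM1, the nucleolar chaperone, was 1481, 1478 and 1479 RPKM in untreated libraries and 1668, 1699 and 1437 RPKM in treated libraries, and NCL, or nucleolin, 246, 249 and 236 RPKM and 266, 253 and 248 RPKM. The other 8 genes, BOP1, LYAR, RRS1, PUS1, FBXW8, VEGFA, FBXO32 and HSPBAP1, had log2 fold changes between -0.19 and 0.11, and none was past the threshold.

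The E box core CACGTG, which is its own reverse complement, was in 10.2% of the promoters of all genes tested that have one, in 10.1% of those of genes called lower and in 10.1% of those of genes called higher. It was in 7.43% of the promoters of the whole table. Genes whose promoter holds it were called lower in 11.6% and higher in 16.5% of cases, and genes without it in 11.7% and 16.6%. The related letters CTCGTG, searched on both strands, were in 7.56% of lower, 10.3% of higher and 8.47% of all genes tested. Of the ribosome biogenesis genes, 23 of 57 (40.4%) hold CACGTG, and of these 23 genes 2 rose and 0 fell, with a median log2 fold change of 0.05. None of the 18 promoters of genes that fell by at least 1 on the log2 scale holds it, ID1, ID2 and ID3 included. The windows around it are shown for FBXW8 and HSPBAP1, which the study assayed, and for ATF4, with the E box in capitals, from chr12:116910839-116910898 (plus strand), chr3:122793878-122793937 (minus strand) and chr22:39520450-39520509 (plus strand).
FBXW8: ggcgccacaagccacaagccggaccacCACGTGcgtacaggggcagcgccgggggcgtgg
HSPBAP1: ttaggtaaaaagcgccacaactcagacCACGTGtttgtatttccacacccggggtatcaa
ATF4: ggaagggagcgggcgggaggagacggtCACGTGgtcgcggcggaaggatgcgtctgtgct
FBXW8 and HSPBAP1 had log2 fold changes of -0.13 (adjusted p = 0.236) and -0.19 (adjusted p = 0.111), and ATF4 fell as given above. The promoter of HSPBAP1 holds 3 matches to the core, of which the one farthest from the start is shown, and those of FBXW8 and ATF4 hold 1 each. Of the 6 assayed genes with a promoter here, the other 4, NPM1, NCL, LYAR and ATAD3A, hold no match in this window. The study reported MYC and Omomyc at such promoters, so a gene without the letters in this window may still be bound. The shares above describe the window and not binding.

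DNA replication genes changed mostly downward and by small amounts. Of 33 such genes, 12 fell and 1 rose, against 10.8% lower among all genes, with a median log2 fold change of -0.10. MCM6, a subunit of the replicative helicase, had means of 64.7 and 51.0 RPKM, and POLE, the leading strand polymerase, was the gene that rose, at 0.29. Of 18 G1 genes, 5 fell, among them CDK6 at -0.31 and CDK2 at -0.22, and 0 rose. Of 24 mitosis genes, 6 rose and 2 fell, with CDC20 at 0.33 and CDK1 at -0.29, and after rescaling to an equal sum 0 were higher and 4 lower. Nucleotide synthesis genes, a class of MYC targets, had 3 higher and 5 lower of 18, with PPAT at -0.30. Of 22 genes of the p53 list, 3 were higher and 7 lower, with PLK2 at -0.66, while CDKN1A and MDM2 had log2 fold changes of -0.02 and -0.05 and were not past the threshold. The rescaled counts were 0 higher and 18 lower for replication, 0 and 9 for G1, 0 and 8 for nucleotide synthesis and 0 and 11 for p53 genes. For all 14886 genes they were 893 and 2980.

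In other signaling lists, changes went both ways, against 16.6% higher and 10.8% lower among all genes. Of 11 WNT targets, 5 fell, NOTUM, which inactivates WNT proteins, at -0.66, AXIN2 at -0.36 and SOX9 at -0.36, and EPHB3 rose at 0.42. Of 12 YAP genes, 6 fell, AMOTL2 at -0.63, CYR61 at -0.56 and YAP1 itself at -0.52, and 3 rose, among them the receptor kinase AXL at 0.71 and NT5E at 0.64. Of 13 NF-kB genes, 5 rose and 1 fell. CXCL8, a chemokine, was 1.12, 0.671 and 1.28 RPKM in untreated libraries and 1.78, 2.02 and 2.48 RPKM in treated libraries, and BIRC3 had a log2 fold change of 0.47. Interferon genes had 2 higher and 2 lower of 13, with ISG15 at 0.41, and NRF2 genes 2 higher and 3 lower of 15, with NQO1 at -0.47 and OSGIN1 at 0.58. The shares called in these lists, 30.8% and 33.3%, stood near the 27.3% of all genes. CD274, the checkpoint ligand PD-L1, was 1.13, 0.605 and 0.617 RPKM and 1.36, 1.45 and 1.17 RPKM and missed the threshold (log2 fold change 0.53, adjusted p = 0.0576), although the groups did not overlap, and CD276, a relative, rose at 0.37. After rescaling to an equal sum, the higher and lower counts were 0 and 6 for WNT, 2 and 6 for YAP, 1 and 1 for NF-kB, 1 and 2 for interferon, 2 and 5 for NRF2 and 0 and 0 for checkpoint genes. Those for all 14886 genes were 893 and 2980.

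The dose comparison asks where 10 μM differed from the lower dose at the same 24 h, without the untreated libraries in the fit. At an adjusted p under 0.05 there were 27 such genes among 15039 (0.18%), with 21 higher and 6 lower at 10 μM, and 1739 genes had an unadjusted p under 0.05. Leaving out 1 library gave 9 genes without the first or the second 10 μM library and 17 without the third 10 μM library. It gave 17 without the first, 24 without the second and 14 without the third library of the lower dose. Of the 27, 14 are protein-coding and 11 pseudogenes. FOS and EGR1, already low at the lower dose, were lower still at 10 μM, FOS at 7.73, 8.45 and 9.26 RPKM (log2 difference -1.64, adjusted p = 0.0116) and EGR1 at 4.47, 3.71 and 4.75 RPKM (log2 difference -1.24, adjusted p = 0.00577). ID2 was 12.8, 15.3 and 13.7 RPKM at 10 μM (log2 difference -0.67, adjusted p = 0.0116), below every library of the lower dose. ID1, ID3, ASNS, SAT1 and CHAC1 had log2 differences of -0.29, -0.42, -0.12, -0.40 and -0.16 and adjusted p-values of 0.178 or more. FOSB came near the threshold (log2 difference -1.36, adjusted p = 0.0524). Enzymes of sterol and lipid synthesis were higher at 10 μM, among them MSMO1, ACAT2, CYP51A1 and FADS1, with log2 differences of 0.52, 0.52, 0.42 and 0.43. CYP51A1 and FADS1 were named after their values had been seen. These calls were fragile, since MSMO1 lost its call under 11 of 17 alternatives and ACAT2 under 10. CYP51A1 and FADS1 lay close to the threshold (limma, adjusted p = 0.0459 and 0.0481). Of the 24 sterol genes, 3 were past the threshold here, all higher, with a median log2 difference of 0.33. TLCD1, SLC38A5 and ALG5 were also past the threshold and higher at 10 μM, as was S100A9, which was listed at 0 in all libraries of the lower dose and passed the filter only through the 10 μM libraries. DHRS2, a dehydrogenase, was lower at 10 μM (-0.74), and HIST2H4B, which fell at the lower dose, was 31.3, 29.4 and 27.8 RPKM at 10 μM. The comparison of each dose with the untreated cells shares those 3 libraries, and at 10 μM it called 5220 of 14827 (35.2%), with log2 fold changes of -3.58 for FOS and -2.20 for ID3.

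The time comparison asks where 24 h differed from 6 h at the lower dose. Times follow the titles, and if the 4 h of the time tag were right, their order would be reversed. It called 6026 of 14775 genes (40.8%), of which 4570 (30.9% of those tested) were higher and 1456 (9.85%) lower at 24 h. The comparison of 6 h with the same untreated libraries called 6884 of 14550 (47.3%). The genes that moved most between the times were immediate early and YAP-responsive genes. CYR61, a matricellular protein, was 129, 82.0 and 147 RPKM at 6 h, against 4.43, 4.44 and 4.60 RPKM in untreated and 3.06, 2.33 and 3.37 RPKM in 24 h libraries (log2 difference between times -5.10, adjusted p = 1.28e-06). CTGF and NR4A1 behaved in the same manner, with means of 27.8 and 103 RPKM at 6 h and of 0.777 and 6.81 RPKM at 24 h. EGR1 was 84.6, 94.8 and 129 RPKM at 6 h, above the untreated cells, and below them at 24 h. FOS was 106, 129.8 and 136 RPKM at 6 h, a range that overlapped that of the untreated cells, and EGR2 was 8.47, 6.42 and 8.20 RPKM at 6 h. All 9 AP-1 genes were lower at 24 h than at 6 h, as were 14 immediate early genes, with 1 higher.

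Genes that were low at both times made up another group. ID2, ID3 and CHAC1 had log2 differences of -0.07, 0.23 and -0.01 between 24 and 6 h and were not past the threshold. ID1, SAT1 and ASNS were lower at 6 h, at 38.3, 55.7 and 54.2, 117, 129 and 131 and 28.3, 25.2 and 39.6 RPKM, and were higher again at 24 h, with log2 differences of 1.19, 0.88 and 0.59. The cytosolic tRNA synthetases were higher at 24 h in 11 of 20 cases and lower in 0, against 30.9% and 9.85% of all genes. Their median log2 difference was 0.24, and that of all genes tested was 0.16. Genes higher at 24 h included DBP, a clock-controlled factor, PPFIA4 and GSDMB, with log2 differences of 2.14, 1.80 and 1.69. BNIP3 and PFKFB4, which were higher than untreated at 24 h, were 9.57, 13.3 and 9.53 RPKM and 4.91, 4.50 and 5.17 RPKM at 6 h, so PFKFB4 was then below the untreated cells. Of the ribosomal protein genes, 27 of 79 were lower and 0 higher at 24 h, and of the biogenesis genes 32 of 64 were lower and 1 higher, with medians of the log2 difference of -0.24 and -0.21. Of the mitochondrial mRNAs, 11 of 13 were lower at 24 h than at 6 h, and MT-ND6 was higher (log2 difference 0.59, limma, adjusted p = 0.0122). MYC mRNA was 156, 154 and 159 RPKM at 6 h (log2 difference -0.71, adjusted p = 0.000168). The share of higher genes among those past the threshold, 75.8%, was 47.4% with median-ratio scaling.

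**Figure D4:**
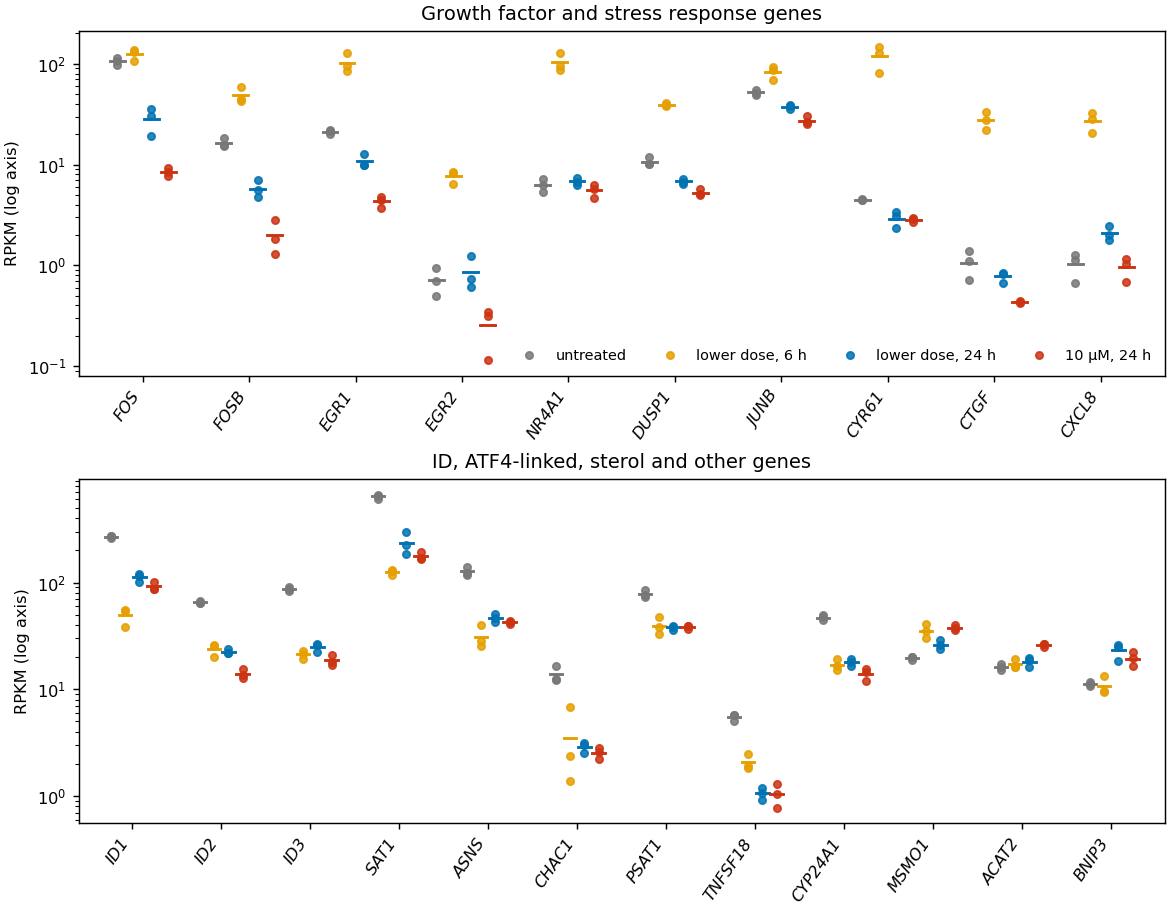
RPKM (log axis) of 22 genes in untreated cells, at the lower dose for 6 and 24 h and at 10 μM for 24 h, with 3 libraries per group as dots and their mean as a bar. CYR61, CTGF and NR4A1 stand high at 6 h alone, with CYR61 at a mean of 119 RPKM, while ID3, ASNS and CHAC1 stand below untreated in all 3 treated groups.

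A model over 12 libraries tested whether the change at 24 h differed between HCT116 cells at the lower dose and Ramos cells at 2.5 μM. It did for 2565 of 15714 genes (16.3%), with 1070 higher and 1495 lower in HCT116 relative to Ramos cells. Without the third untreated HCT116 library it did for 1627 genes. Genes listed at 0 in Ramos cells, COL1A1 for example, can be among them, and their difference is then the HCT116 change alone. ID3, ID2 and ID1 fell in HCT116 cells, and their log2 changes in Ramos cells were 0.22, 0.12 and 0.28 (adjusted p of the difference 5.73e-07, 5.92e-07 and 1.46e-05). ASNS and PSAT1 had log2 changes of -0.03 and -0.004 in Ramos cells, with means of 165 and 28.6 RPKM when untreated. The labels give 2 μM for one line and 2.5 μM for the other, so the doses may differ. The study's sequencing methods give ProteoJuice for HCT116 cells and do not mention Ramos cells, so the reagent may differ too. Effects of the line, the dose and the reagent cannot be told apart in this comparison.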

How the data were processed

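Total RNA was depleted of ribosomal RNA and sequenced with a stranded Illumina kit, per the labels. The deposited table holds RPKM for 57992 genes in 30 libraries, which the authors made before deposit. The submitters' processing notes name RSEM, and the aligner and annotation are not given in the sources used here. Gene symbols came from GENCODE release 29 (GRCh38) by Ensembl ID, for 57388 genes. The table gives no read counts, so the depth per library is unknown and no counting interval is given.

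Genes with a mean of at least 0.5 RPKM over the libraries compared were tested on log2(RPKM + 0.5) with limma 3.58.1 (lmFit and eBayes with a trend) in R 4.3.3, 3 libraries per group, with Benjamini-Hochberg adjustment over all genes tested and a threshold of 0.05. Fold changes on this scale understate the change of low genes, whereas folds given as "-fold" are ratios of mean RPKM. The dose, time and line comparisons were fitted in the same way on their own libraries, the last with an interaction term. A check on simulated data for the main comparison recovered 188 of 200 changed genes among 14886, with 13 false calls. Recovery was not tested separately for small changes, which make up most of those reported here, or for low genes. Named genes are those the study singled out, the 10 largest protein-coding rises and falls with a mean of at least 2 RPKM and no overlap between groups, the 3 largest of each among other genes, up to 4 called members of each list, every gene of the promoter assay, and the 3 largest rises and falls of the dose and time comparisons. The members and the 36 gene lists were chosen with earlier results of these data known. Alternatives changed the scaling, filter, pseudocount, model and libraries. Some named genes are not reported here.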

Additional observations from a re-analysis of the deposited data

Results flagged for a closer look

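Genes whose change at 24 h differed between lines by the test of the interaction numbered 2565. Those listed here passed the test among the genes that the study singled out and the largest protein-coding rises and falls in HCT116 cells. Other named genes that passed it, ID1, ADM, LAMB3, KRT7 and BNIP3 among them, are not listed. The rises and falls were ranked on the same HCT116 libraries that this test uses, so the sizes of their differences may be overstated. The HCT116 log2 change minus the Ramos log2 change was positive for ANGPTL4 (1.98), CD274 (1.31) and EGR2 (1.26). It was also positive for genes of the mitochondrial genome. These were MT-ATP6 (2.62), MT-ATP8 (2.72), MT-CO2 (2.60), MT-CYB (2.44), MT-ND1 (2.82), MT-ND2 (3.12), MT-ND3 (2.45), MT-ND4 (2.67) and MT-ND4L (2.73). The same difference was negative for ASNS (-1.42), CHAC1 (-1.84), CYP24A1 (-1.45), FOS (-1.63), FOSB (-1.28) and HIST2H4B (-1.41). So it was for ID2 (-1.64), ID3 (-2.00), MYC (-0.57), SAT1 (-1.23) and TNFSF18 (-1.95). A difference of this kind can come from a change in either line, and the size of the change in Ramos cells is given in the report for the ID genes and ASNS. The filter was a mean over all 12 libraries, so a gene near 0 in Ramos cells can pass it. COL1A1, listed at 0 in the Ramos libraries used, had a difference of 0.998, the size of its HCT116 change. For TNFSF18 and ANGPTL4 the differences were also close to the HCT116 changes of -1.95 and 1.98. EGR2 and CD274 were not past the threshold in HCT116 cells. Their log2 fold changes there, 0.15 and 0.53, were smaller than the differences listed, so their log2 changes in Ramos cells were negative.

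Between 6 and 24 h at the lower dose, 6026 genes differed by the test of the difference itself. The genes that the study singled out and that passed it were ASNS (log2 difference 0.59), SAT1 (0.88) and CD274 (0.45), all higher at 24 h, and EGR2 (-2.61) and MYC (-0.71), both lower at 24 h.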

How the results depend on the processing

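The count of 4071 genes became 2282 with no filter on low values, 1113 with all 5 HCT116 groups in one fit, 1659 at an adjusted p under 0.01, 114 at a log2 fold change of at least 1, and 2167 to 3665 when 1 library was left out. The share of higher calls, 60.6%, was 49.1%, 46.9% and 48.6% with median-ratio, quantile and length scaling. The dose count of 27 became 5 with no filter, 47 with an equal sum, 4 without the trend, 8 with all 5 groups, 7 at 0.01, 14 at a log2 difference of at least 1, and 9 to 24 without 1 library. The time count became 3147 at 0.01, 397 at a log2 difference of at least 1, and 4185 to 5650 without 1 library, and its share of higher calls was 92.4% with an equal sum. The line count of 2565 became 6381 with an equal sum, with 5.27% higher against 41.7%, 848 at 0.01, 157 at a difference of at least 1, and 1627 to 2505 without 1 library. The line model with all 5 HCT116 groups was not run. Same-numbered untreated and treated libraries did not deviate together (correlations -0.18 to -0.01), so the numbers do not pair them. With a replicate block, 2900 genes were called in the main comparison, 32 for dose, 6070 for time and 1238 for line. Of the values of single named genes in the main comparison, 2804 kept their direction and side of the threshold, 258 lost the call, 6 gained it and 20 changed sign, all of genes that were not called. With an equal sum these were BOP1 (-0.081), FBXO32 (-0.10), LYAR (-0.056), NCL (-0.089), NPM1 (-0.046), NR4A1 (-0.036), PUS1 (-0.041), RRS1 (-0.10) and VEGFA (-0.053). FBXO32 was -0.018, -0.12 and -0.0064 with median-ratio, quantile and length scaling, and RRS1 was -0.047 with length scaling. Leaving out 1 library moved EGR2 from -0.038 to 0.29, FBXO32 from -0.15 to 0.16, MAX from -0.10 to 0.075 and PUS1 from -0.00012 to 0.21. The cause of these differences was not tested, and the precision that depth would set is unknown.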

Other observations

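Further gene groups were described after their leading members had been seen among the largest rises, so their counts are descriptions. Among all genes, 16.6% were higher and 10.8% lower. Of 19 tested genes induced through hypoxia-inducible factors, 11 were higher, 1 was lower and the median log2 fold change was 0.33. Besides ANGPTL4, ADM, ANKRD37 and BNIP3, they included the collagen prolyl hydroxylases P4HA1 and P4HA2, with log2 fold changes of 0.89 and 0.73, the differentiation gene NDRG1, with 0.60, and the lysyl hydroxylase PLOD2, with 0.48. PDK1, a kinase that restrains pyruvate oxidation, SLC2A1, a glucose carrier, and BNIP3L had log2 fold changes of 0.01, 0.18 and -0.04 and were not past the threshold. After rescaling to an equal sum, 8 of these genes were higher and 1 lower.

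Of 8 tested keratins, laminin chains and integrins of epithelial adhesion, 6 were higher and 1 was lower, with a median log2 fold change of 0.69. The list does not hold every keratin, and of those left out KRT23 fell at -1.29 and KRT19 rose at 0.43. The laminin chains LAMA3 and LAMB3 had log2 fold changes of 0.76 and 1.18, and the keratin KRT15 had 0.86, while ITGB4, an integrin of hemidesmosomes, fell, with -0.37. Genes of the contractile cytoskeleton did not move with TAGLN as a group, since 3 of 14 were higher and 5 lower, MYL9, a myosin light chain, at 0.56 and ACTG1, cytoplasmic gamma-actin, at -0.36.

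Among classes of RNA, small nucleolar RNAs were higher in 29 of 67 cases and lower in 1, with a median log2 fold change of 0.64, and the related small Cajal body RNAs were higher in 6 of 10 and lower in 0. Among all genes, 16.6% were higher and 10.8% lower. Some of these RNAs, SNORD33, SNORA66 and SNORA20 among them, passed the filter only through the treated libraries. That tilts the counts and medians upward, so they are descriptions. Protein-coding genes were higher in 2042 of 12365 cases and lower in 1513. The share of small and miscellaneous RNA in a library also differed between the groups, as given in the report, and its part in these counts was not tested.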
